A study of Mus musculus with 10 samples.

Results

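The comparison was between 1 day and 4 hours of forskolin in cultured mouse adipocytes, read as chromatin accessibility by ATAC-seq, an assay in which a transposase cuts and tags open DNA. It took the 2 libraries labelled FSK1D (S5 and S6) and the 2 labelled FSK4h (S3 and S4) out of the 10 libraries of the series, and all 122984 peaks of the deposited count table were members. The FSK1D and FSK4h cells were adipocytes made from MAP cells, a single immortalized mouse adipocyte progenitor line, and got forskolin at day 7 to 8 of differentiation. Before that, cells of every group had been differentiated with insulin, isobutylmethylxanthine, dexamethasone and rosiglitazone, and then with insulin and rosiglitazone. The forskolin dose is not stated in the labels used here, nor do they say that replicate libraries were separate cultures. The p-values therefore measure the spread between these libraries, which may be technical. The other groups, vehicle control, forskolin for 3 days (FSK3D) and rosiglitazone for 3 days (Rosi3D), had 2 libraries each. They shared the estimate of the spread and are given beside the contrast as levels only.

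Forskolin activates adenylyl cyclase, so that cyclic AMP rises and protein kinase A phosphorylates the transcription factor CREB. CREB binds the cAMP response element and turns on immediate-early genes such as Nr4a1 and Egr1, as well as phosphodiesterases that degrade cAMP and end the signal. In adipocytes the same pathway is the route by which noradrenaline drives lipolysis and, over days, the thermogenic program around Ucp1 and Ppargc1a. An early and a later time of forskolin bear on which sites are open during the acute response and which are open once it has lasted a day.

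Counts in peaks were 17002986 and 18935287 in FSK1D libraries, against 15062740 and 16519865 in FSK4h libraries. Libraries of 1 group differed by more than counting noise (chi-square over degrees of freedom of 2.35 in FSK1D and 2.37 in FSK4h), so none was a repeat deposit. Peaks were assigned to all 7 adipocyte markers, but also to all 8 endothelial and 8 of 10 macrophage markers, with none tested at Adgre1 and Tyrobp. Such sums take in peaks up to 50 kb from a gene and do not by themselves show a cell type.

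Start-site windows are shown here for 3 peaks that were lower and 3 that were higher after 1 day, because they let the letters be read beside the response. They do not represent the motif content of all called windows, given further below, and were picked after their values were seen. Each is the 250 bases before an annotated start in RefSeq GRCm38.p6, written 5′ to 3′ on the strand of the gene. Capitals mark exact matches on either strand to the cAMP response element TGACGTCA, its core TGACG, the AP-1 site TGAGTCA, the C/EBP site TTGCGCAA, the NBRE site AAAGGTCA or the E-box CACGTG. The windows are Slc25a25 at chr2:32424067-32424316 (minus strand), Nr4a1 at chr15:101266596-101266845 (plus), Krt13 at chr11:100120578-100120827 (minus), Ranbp3l at chr15:8967699-8967948 (plus), Bmf at chr2:118544588-118544837 (minus) and Serpina3i at chr12:104262872-104263121 (plus).
Slc25a25: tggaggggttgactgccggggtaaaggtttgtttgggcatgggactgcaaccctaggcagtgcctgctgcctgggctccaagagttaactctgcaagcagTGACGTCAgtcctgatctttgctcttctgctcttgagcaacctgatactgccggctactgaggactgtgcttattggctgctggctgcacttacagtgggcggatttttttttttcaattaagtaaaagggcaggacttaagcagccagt
Nr4a1: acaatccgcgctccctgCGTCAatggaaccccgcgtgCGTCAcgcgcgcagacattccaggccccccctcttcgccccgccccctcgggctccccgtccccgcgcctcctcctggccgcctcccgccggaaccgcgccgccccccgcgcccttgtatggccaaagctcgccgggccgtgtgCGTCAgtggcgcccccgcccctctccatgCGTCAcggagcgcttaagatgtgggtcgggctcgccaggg
Krt13: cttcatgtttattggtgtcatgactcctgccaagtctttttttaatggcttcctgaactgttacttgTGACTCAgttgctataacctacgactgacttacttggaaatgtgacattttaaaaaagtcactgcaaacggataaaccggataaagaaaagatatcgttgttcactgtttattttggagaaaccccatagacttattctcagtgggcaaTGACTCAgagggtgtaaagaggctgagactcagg
Ranbp3l: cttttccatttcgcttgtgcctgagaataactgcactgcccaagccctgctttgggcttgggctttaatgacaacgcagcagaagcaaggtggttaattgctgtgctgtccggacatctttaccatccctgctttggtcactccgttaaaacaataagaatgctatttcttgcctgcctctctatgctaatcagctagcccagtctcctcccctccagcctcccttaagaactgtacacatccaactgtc
Bmf: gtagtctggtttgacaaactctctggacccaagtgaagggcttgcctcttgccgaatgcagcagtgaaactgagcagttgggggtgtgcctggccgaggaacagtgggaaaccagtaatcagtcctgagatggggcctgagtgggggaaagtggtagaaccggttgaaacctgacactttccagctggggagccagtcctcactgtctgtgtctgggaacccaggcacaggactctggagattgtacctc
Serpina3i: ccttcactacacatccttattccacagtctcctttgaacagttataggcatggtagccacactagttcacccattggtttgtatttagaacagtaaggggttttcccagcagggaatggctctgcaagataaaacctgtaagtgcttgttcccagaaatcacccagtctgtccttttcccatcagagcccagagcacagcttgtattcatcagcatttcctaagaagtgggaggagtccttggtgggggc

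After 1 day, 3555 peaks were less accessible and 3066 more accessible than after 4 hours, out of 118954 tested (edgeR quasi-likelihood test, Benjamini-Hochberg adjusted p below 0.05). Called peaks made up 5.57% of those tested, with 2.58% higher and 2.99% lower in FSK1D. Of these, 1592 were lower and 1347 higher by at least 2-fold. Levels are given as CPM, a library's counts scaled to a common total, after TMM scaling, which sets libraries on a common scale by the bulk of their peaks. With plain library totals in place of TMM the split turned, with 3625 higher and 2592 lower peaks (58.3% of calls higher, against 46.3%), and it also turned with scaling by gene-end peaks (53.4% higher), without S3 (1087 higher, 971 lower) and without S6 (1109 higher, 937 lower). The count rests on all 4 libraries, since 2058 peaks were called without S3, 2793 without S4, 2148 without S5 and 2046 without S6. In bulk nuclei, fewer cells of a type and less open chromatin per cell cannot be told apart.

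**Figure D1:**
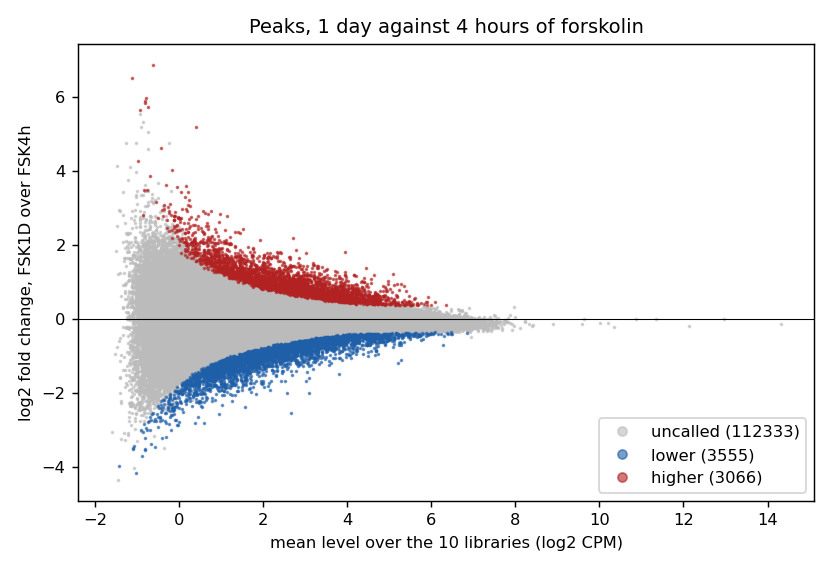
Log2 fold change of FSK1D over FSK4h (vertical axis) against the mean level over the 10 libraries in log2 CPM (horizontal axis) for each of the 118954 tested peaks, with the 3066 higher peaks in red, the 3555 lower peaks in blue and uncalled peaks in grey. Called peaks lie on both sides of 0, and 1592 of the lower and 1347 of the higher peaks are at least 2-fold from it.

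The lower peaks stood highest after 4 hours. Their median level was 4.25 and 4.12 CPM in FSK1D libraries, against 8.28 and 7.85 CPM in FSK4h libraries. The same peaks had medians of 3.13 and 3.14 CPM in control libraries, which entered their choice only through the shared estimate of the spread. In FSK3D libraries they were at 4.19 and 3.88 CPM, close to the FSK1D medians, and in Rosi3D libraries at 3.37 and 3.33 CPM. The median of these peaks in the FSK1D libraries lay between the control and FSK4h medians, nearer to control.

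The higher peaks stood lowest after 4 hours. Their median level was 6.82 and 6.62 CPM in FSK1D libraries, against 3.42 and 3.44 CPM in FSK4h libraries. Control libraries had 6.26 and 6.36 CPM at these peaks, FSK3D libraries 6.67 and 6.09 CPM and Rosi3D libraries 6.06 and 5.99 CPM. The FSK4h libraries were below the libraries of all 4 other groups in this median. Uncalled peaks had medians of 2.74 and 2.65 CPM in FSK1D, against 2.70 and 2.66 CPM in FSK4h and 2.42 and 2.40 CPM in control libraries. The FSK1D and FSK4h medians follow from how the peaks were chosen and carry no test. Choosing peaks by their FSK4h level also favours an FSK4h median beyond those of the other groups, for lower and higher peaks alike. The place of FSK4h against control, FSK3D and Rosi3D is therefore a description only.

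**Figure D2:**
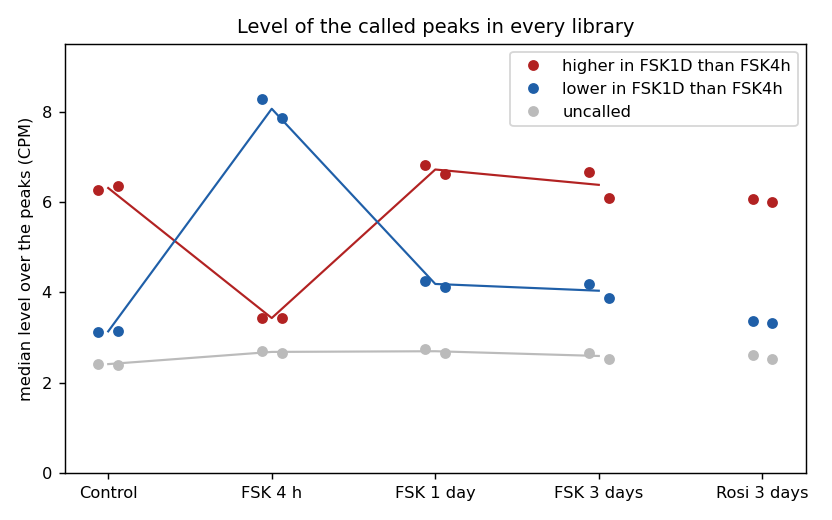
Median level in CPM (vertical axis) of the peaks higher, lower or uncalled in FSK1D against FSK4h, with 1 point per library and lines through the means of the forskolin time course from control to 3 days; rosiglitazone stands at the right. The lower peaks reach 8.28 and 7.85 CPM in the FSK4h libraries, and the higher peaks fall to 3.42 and 3.44 CPM there.

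Called peaks were mostly away from gene ends. Gene-end peaks, those within 1 kb of either end of a protein-coding gene, made up 13.5% of tested peaks but 7.12% of the lower and 7.80% of the higher peaks. In this class 1.58% of peaks were lower and 1.49% higher, against 3.04% and 2.75% of gene-body peaks. Peaks outside genes but assigned to one within 50 kb gave 3.22% lower and 2.96% higher, and those with no gene that near gave 3.69% lower and 2.37% higher. The gene-end peaks were also stronger, with a median of 17.6 CPM against 2.57 CPM for gene-body peaks. Called shares grew with level, at 0.995% lower and 0.602% higher in the weakest level class (0.329 to 1.45 CPM) and 4.31% lower and 4.49% higher in the strongest (from 7 CPM).

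The falls were led by a peak 2550 bp outside Dhx40, which encodes a DEAH-box helicase, at chr11:86810427-86811275. It had 3.46 and 2.09 CPM in FSK1D libraries, against 16.4 and 15.4 CPM in FSK4h libraries and 1.62 and 1.82 CPM in control libraries. The log2 fold change was -2.53 ± 0.22 (SE), with an edgeR adjusted p of 9.23e-14. A peak 7148 bp from Angptl4, the secreted inhibitor of lipoprotein lipase, lay at chr17:33788723-33789297. It had 5.59 and 5.65 CPM in FSK1D libraries, against 21.8 and 22.9 CPM in FSK4h libraries and 3.53 and 2.81 CPM in control libraries, a log2 fold change of -1.99 ± 0.18. At both peaks the FSK1D libraries lay far below the FSK4h libraries and just above control.

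A peak 35193 bp from Egfr, the epidermal growth factor receptor, had 2.96 and 2.14 CPM in FSK1D libraries, against 11.4 and 9.42 CPM in FSK4h libraries (log2 fold change -2.03 ± 0.27). In control libraries it held 0.808 and 0.661 CPM, and in Rosi3D libraries 0.551 and 0.926 CPM. A peak inside Qsox1, an oxidase that forms disulfide bonds in secreted proteins, had 2.07 and 1.02 CPM in FSK1D libraries and 8.42 and 7.37 CPM in FSK4h libraries (-2.36 ± 0.32). Near Hcar2, the niacin and ketone-body receptor that restrains lipolysis, a peak had 2.46 and 2.34 CPM in FSK1D libraries and 9.01 and 8.94 CPM in FSK4h libraries (-1.90 ± 0.25). It was lower in FSK1D libraries than in both control libraries (4.24 and 3.63 CPM), as was the peak near Ripply3 below. Peaks nearest to Lpp, a focal adhesion protein, to Kif26a, a kinesin family member, and to Ripply3, a transcriptional corepressor, fell by 1.98, 1.96 and 1.89 on the log2 scale. The Lpp and Kif26a peaks lay 55164 and 113503 bp from the gene named, so that name is only the nearest. All 8 of these falls were called under each of the 11 alternatives, with adjusted p up to 0.0111.

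The largest rises among peaks of at least median level were 1.82 to 2.44 on the log2 scale. A gene-body peak of Eml1, which encodes a microtubule-binding protein, lay at chr12:108489870-108490245 and had 5.87 and 4.48 CPM in FSK1D libraries, against 0.855 and 1.03 CPM in FSK4h libraries. The log2 fold change was 2.44 ± 0.35 (edgeR adjusted p 9.42e-07). A gene-end peak of Mmp2, a gelatinase that degrades matrix, lay at chr8:92825858-92826454, 836 bp outside the gene. It had 9.22 and 7.33 CPM in FSK1D libraries, against 1.84 and 1.75 CPM in FSK4h libraries (2.20 ± 0.25, adjusted p 1.34e-09). Control libraries stood in between at 5.15 and 4.54 CPM, while FSK3D libraries had 8.85 and 8.23 CPM. A gene-body peak of Tgfbi, a matrix protein induced by TGF-β, had 4.69 and 4.48 CPM in FSK1D libraries and 0.920 and 1.15 CPM in FSK4h libraries.

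Lmcd1, a LIM-domain regulator, had a gene-body peak with 3.58 and 4.63 CPM in FSK1D libraries, against 0.460 and 1.81 CPM in FSK4h libraries and 10.5 and 7.60 CPM in control libraries. At Maml1, a Notch coactivator, the values were 7.21 and 6.52 CPM in FSK1D libraries and 1.91 and 1.87 CPM in FSK4h libraries, with 9.39 and 8.51 CPM in control libraries. At these peaks the FSK1D libraries lay above FSK4h and below control. Peaks nearest to Tle4, a Groucho corepressor, to Eml6 and to Irf1 rose by 1.94, 1.93 and 1.90. Of the 8 rises, 7 were called under all 11 alternatives, and the call of the Lmcd1 peak was lost without S3 (adjusted p 0.0571).

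**Figure D3:**
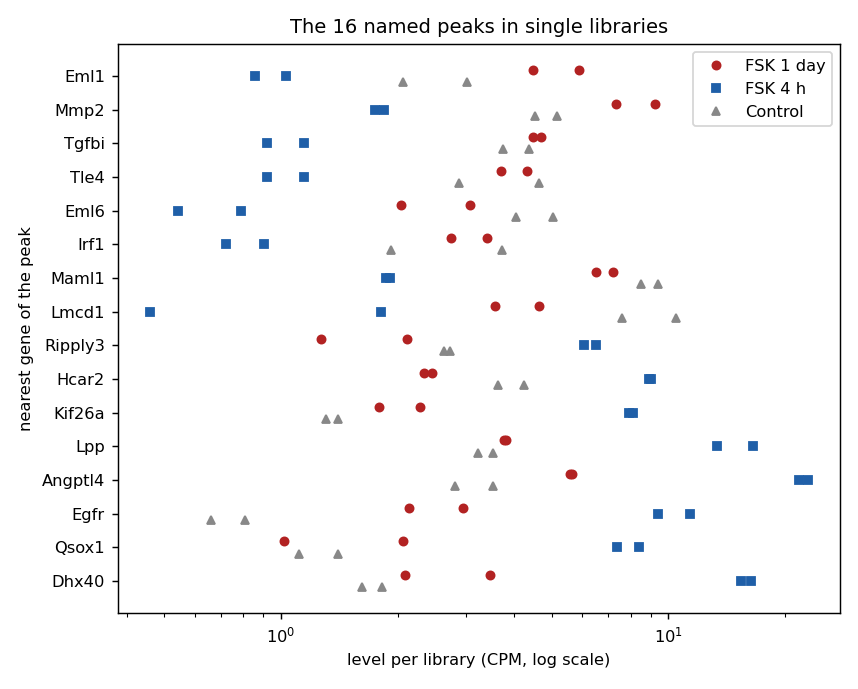
Level in CPM on a log scale (horizontal axis) of the 16 peaks with the largest rises and falls, named by nearest gene, in FSK1D (red circles), FSK4h (blue squares) and control libraries (grey triangles), 1 point per library. The 16 peaks were chosen among those whose FSK1D and FSK4h libraries do not overlap, as at 51.0% of all tested peaks; at Dhx40 the FSK1D libraries hold 3.46 and 2.09 CPM against 16.4 and 15.4 CPM in FSK4h.

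Counts were also summed over the peaks of each protein-coding gene. By this measure 580 genes fell and 340 rose among 17019 tested, 5.41% in all, with 3.41% lower and 2.0% higher in FSK1D. The median over all genes was a log2 fold change of -0.04. The direction of the split depends on scaling, since 507 genes were lower and 794 higher with library totals alone, and the share of calls that were higher was 37.0% with TMM, 61.0% with totals, 52.4% with trended offsets, 48.5% with scaling by gene-end peaks and 26.2% with DESeq2 size factors. The number of genes called was 97 without S3, 173 without S4, 113 without S5 and 257 without S6. With gene-end peaks alone, 12 of the 54 called genes named in this text that had a value were still called. Most of these calls thus depend on sums that take in peaks away from gene ends. Calls of single genes below are given with that in view. At least 1 called peak was assigned to 3648 genes, and 394 had called peaks in both directions.

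Among the largest gene falls, Ier3, an immediate-early gene that protects from apoptosis, averaged 162 ± 3.79 CPM in FSK1D and 241 ± 7.83 CPM in FSK4h libraries (SD, n = 2 each). Its log2 fold change was -0.58 ± 0.063 (SE), with an edgeR adjusted p of 2.02e-05, and 5 of its 11 peaks fell. Clstn3, a calsyntenin, averaged 62.8 ± 1.08 CPM in FSK1D and 97.5 ± 3.16 CPM in FSK4h libraries (-0.64 ± 0.085). Clcf1, a cytokine of the interleukin-6 family, averaged 87.3 ± 9.34 CPM in FSK1D and 135 ± 0.398 CPM in FSK4h libraries (-0.63 ± 0.087). These 3 genes fell under all 13 alternatives. Rptor, which encodes the mTORC1 subunit raptor, averaged 139 ± 0.386 CPM in FSK1D and 215 ± 8.71 CPM in FSK4h libraries (-0.63 ± 0.066), with 9 of 28 peaks lower. It kept its call in 12 alternatives and lost it with gene-end peaks alone (adjusted p 0.231). Cd53, a tetraspanin of leukocytes, Scp2, a sterol carrier, Ice2 and Dhx40 also fell, by 0.62, 0.60, 0.60 and 0.59. Without S3 the call of Cd53 was lost (adjusted p 0.0534). With gene-end peaks alone Ice2 gave -0.18 (adjusted p 0.632) and Dhx40 -0.33 (0.28), both uncalled. The Dhx40 value includes the peak described above.

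Among the largest gene rises, Ccn5, a matricellular protein, averaged 120 ± 3.20 CPM in FSK1D and 75.7 ± 0.651 CPM in FSK4h libraries. The log2 fold change was 0.66 ± 0.073 (edgeR adjusted p 2.02e-05), and 6 of its 13 peaks rose with none lower. Its strongest rise, at chr2:163798405-163798900, had 13.7 and 13.1 CPM in FSK1D libraries, against 4.93 and 5.19 CPM in FSK4h libraries and 12.5 and 12.1 CPM in control libraries. Adamts7, a metalloprotease, averaged 77.8 ± 0.81 CPM in FSK1D and 48.2 ± 2.46 CPM in FSK4h libraries (0.69 ± 0.084), and its neighbour on chromosome 9, the Rab regulator Tbc1d2b, 167 ± 10.4 and 111 ± 2.73 CPM in these groups (0.60 ± 0.068). Hp, haptoglobin, averaged 52.3 ± 0.748 CPM in FSK1D and 33.6 ± 2.21 CPM in FSK4h libraries, and Atp6v0e2, a proton pump subunit, 42.4 ± 5.05 and 26.9 ± 1.22 CPM. These 5 genes rose under all 13 alternatives. Edar, the ectodysplasin receptor, rose by 0.81, Alox5ap by 0.68 and the matrix protein Comp by 0.61. Edar and Comp were higher still in control libraries, at 92.5 and 87.5 CPM and at 76.3 and 82.5 CPM. The call of Comp was lost without S3 (0.45, adjusted p 0.0924). With gene-end peaks alone Edar gave 0.44 (0.655), Alox5ap 1.46 (0.219) and Comp 0.09 (0.893), all uncalled, and Alox5ap gave 0.21 (0.492) with assignment within 10 kb.

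**Figure D4:**
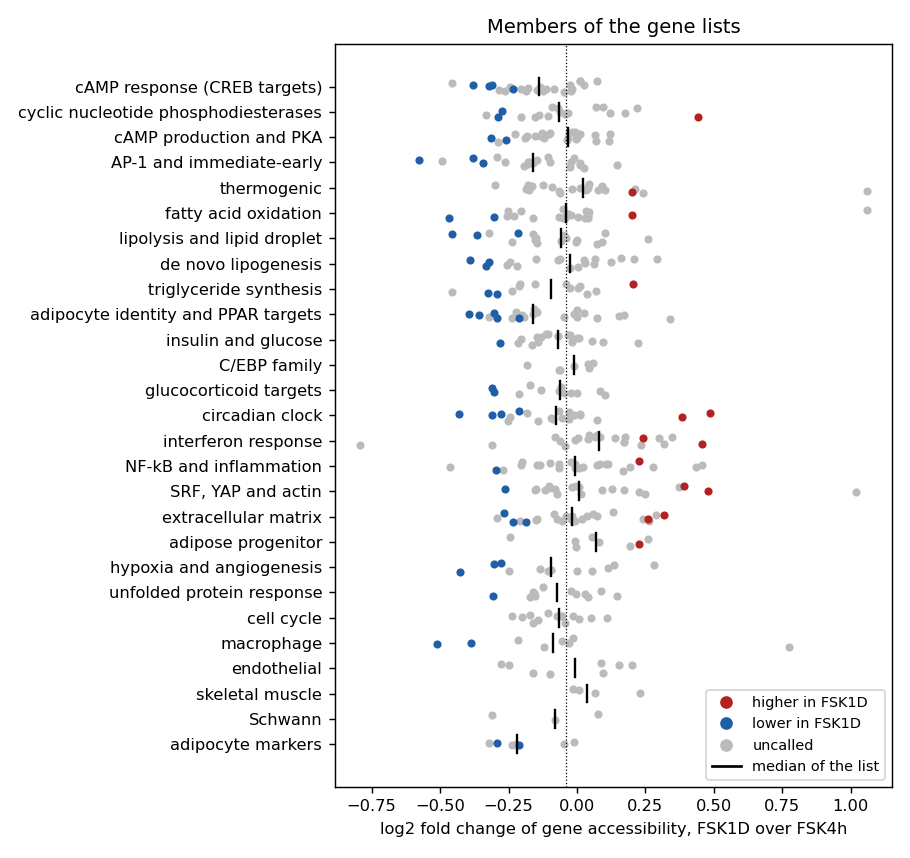
Log2 fold change of gene accessibility, FSK1D over FSK4h (horizontal axis), for each tested member of 27 gene lists, with higher members in red, lower in blue and uncalled in grey; bars are list medians and the dotted line is the median of all genes, -0.04. In the list of cAMP response genes 4 of 24 members were lower and none higher, and in the interferon list 2 of 22 were higher and none lower.

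Genes that answer cAMP were lower after 1 day or did not pass the test. Of 24 targets of CREB, Per1, Sik1, Egr1 and Nr4a1 fell and none rose, and the list median was -0.14 against -0.04 over all genes. Per1, a clock repressor, had 162 and 162 CPM in FSK1D libraries, against 200 and 202 CPM in FSK4h libraries (-0.31 ± 0.057, edgeR adjusted p 0.00274). Sik1, a kinase that CREB induces and that restrains its coactivators, had 129 and 141 CPM in FSK1D libraries and 168 and 169 CPM in FSK4h libraries (-0.32 ± 0.066). Egr1, a zinc-finger immediate-early factor, had 97.2 and 95.5 CPM in FSK1D libraries and 122 and 128 CPM in FSK4h libraries (-0.38 ± 0.079). Control libraries had 199 and 210 CPM at Per1, 154 and 152 CPM at Sik1 and 136 and 139 CPM at Egr1. FSK1D libraries thus lay below control at these 3 genes, and at Egr1 FSK4h libraries did too. FSK1D and FSK4h libraries did not overlap at these 3, as at 56.0% of all tested genes. None of the 4 was called without S3, S4 or S5 (adjusted p 0.0551 to 0.368), and Per1 and Sik1 were called without S6. At the level of peaks, 14 of 223 assigned to the list fell and 6 rose, against 2.86% lower and 2.62% higher of all peaks assigned to genes.

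At Nr4a1, an orphan nuclear receptor, 1 of 6 peaks fell and 1 rose. The peak that fell overlaps the start site shown above, at chr15:101266181-101267262, and had 44.9 and 47.2 CPM in FSK1D libraries, against 67.4 and 65.5 CPM in FSK4h libraries and 35.7 and 38.5 CPM in control libraries. The log2 fold change was -0.53 ± 0.12 (edgeR adjusted p 0.00154), and the call was lost without S3 (0.0517) and without S5 (0.0628). That window holds 4 cores of the cAMP response element, the nearest beginning 40 bases before the start. The peak that rose, at chr15:101278902-101279161 and 4107 bp outside the gene, had 2.07 and 1.99 CPM in FSK1D libraries, against 0.46 and 1.03 CPM in FSK4h libraries (1.42 ± 0.45, adjusted p 0.0409), a call lost without S3, S5 or S6. Over the whole gene the fall was 0.23 on the log2 scale (adjusted p 0.0321), and the peak at its outer end gave -0.13 (adjusted p 0.698). The start-site peak of Slc25a25, a mitochondrial ATP carrier, had 30.8 and 30.5 CPM in FSK1D libraries, against 49.4 and 48.4 CPM in FSK4h libraries and 29.1 and 32.0 CPM in control libraries (-0.67 ± 0.12, adjusted p 8.58e-05). Its full cAMP response element, which reads the same on both strands, begins 150 bases before the start. FSK1D and control libraries overlapped there.

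Phosphodiesterases, which break down cyclic nucleotides, had gene calls in both directions, while more of their peaks fell than rose. Of 395 peaks in the list 22 fell and 7 rose. That is 5.57% lower and 1.77% higher, against 2.86% and 2.62% of all peaks assigned to genes. Pde4b held 8 of the lower peaks and Pde4d 6. Of 18 genes tested, Pde4d and Pde10a fell and Pde8b rose, while 3.41% of all genes were lower and 2.0% higher. Pde4d had 382 and 373 CPM in FSK1D libraries, against 469 and 453 CPM in FSK4h libraries and 285 and 273 CPM in control libraries (-0.29 ± 0.047, edgeR adjusted p 0.0012). Pde8b had 59.6 and 59.7 CPM in FSK1D libraries and 44.8 and 43.0 CPM in FSK4h libraries (0.44 ± 0.091). Pde10a had 322 and 324 CPM in FSK1D libraries and 389 and 392 CPM in FSK4h libraries. No call of the 3 remained without S3 (adjusted p 0.0576 to 0.0705). Only Pde4d was called without S4 and without S5, and Pde4d and Pde10a were called without S6.

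At Pde4b, a cAMP-specific phosphodiesterase, the gene sum gave -0.09 (adjusted p 0.469) while 8 of its 37 peaks fell and 1 rose. A gene-body peak at chr4:102521065-102521665 had 1.51 and 1.53 CPM in FSK1D libraries, against 7.69 and 5.07 CPM in FSK4h libraries and 0.808 and 0.578 CPM in control libraries (-2.06 ± 0.34, edgeR adjusted p 1.79e-05). The peak that rose, at chr4:102493868-102494871, had 13.8 and 14.2 CPM in FSK1D libraries, against 6.84 and 7.67 CPM in FSK4h libraries and 8.38 and 7.76 CPM in control libraries (0.95 ± 0.17). It was at 14.9 and 14.3 CPM in FSK3D libraries. The gene sum at Pde4b thus joins peaks that moved in opposite directions. At Pde4d the 6 called peaks all fell. The clearest, at chr13:109899567-109900081, had 13.6 and 11.2 CPM in FSK1D libraries, against 23.9 and 24.9 CPM in FSK4h libraries and 4.24 and 4.87 CPM in control libraries.

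**Figure D5:**
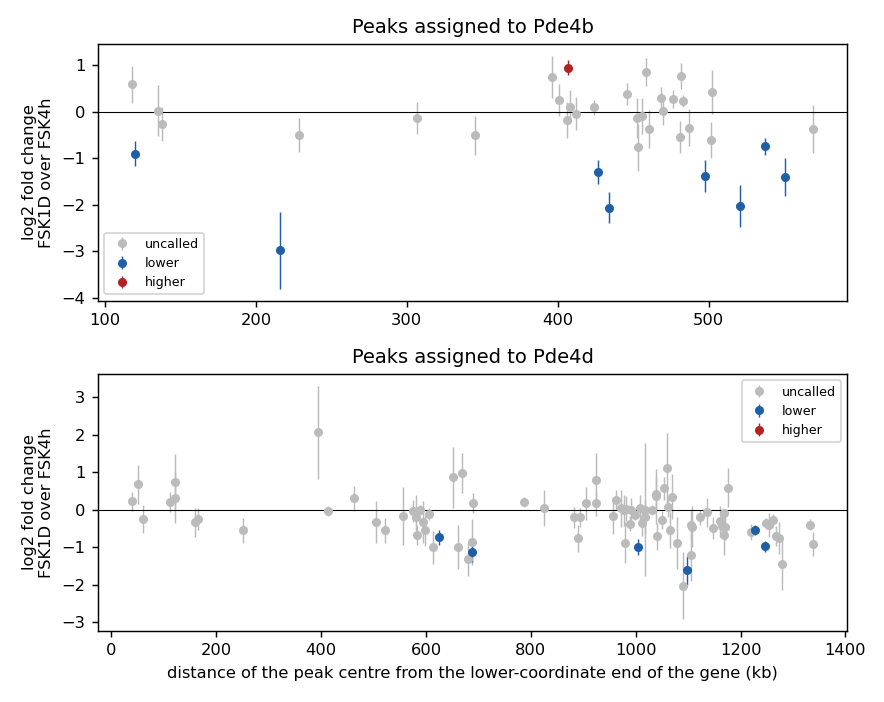
Log2 fold change of FSK1D over FSK4h with its SE (vertical axis) for the 37 tested peaks of Pde4b and the 89 of Pde4d, placed by the distance of the peak centre in kb from the lower-coordinate end of the gene (horizontal axis). At Pde4b 8 peaks were lower and 1 higher, and at Pde4d 6 were lower and none higher.

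The loci with the most peaks called in either direction were picked after their values were seen. Of all peaks assigned to genes, 2.86% fell and 2.62% rose. At Septin9, a cytoskeletal GTP-binding protein, 10 of 38 peaks fell, among them one with 8.94 and 9.27 CPM in FSK1D libraries, against 24.9 and 26.3 CPM in FSK4h libraries (-1.49 ± 0.16, edgeR adjusted p 1.64e-10). At Lpp 10 of 82 fell, and Ebf1, a factor of adipocyte and B cell differentiation, had 7 lower and 2 higher peaks of 72. On the other side, Tgfbr3, the TGF-β co-receptor betaglycan, had 7 higher peaks of 60. Mylk had 6 higher and 1 lower of 38, and Mical3, Myo10, Arhgef10l and Prelp had 6 higher and none lower of 38, 29, 26 and 16. Mylk encodes the myosin light chain kinase, Myo10 an unconventional myosin and Mical3 an actin-oxidizing enzyme. Their gene sums were not called (adjusted p 0.19, 0.11 and 0.0581), while that of Prelp, a matrix proteoglycan, rose by 0.39.

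In the list of cAMP production and protein kinase A, 17 of 340 peaks fell and 8 rose. That is 5.0% and 2.35%, against 2.86% and 2.62% of all peaks assigned to genes. Over all genes tested 3.41% were lower and 2.0% higher. Sik3, a salt-inducible kinase, and Adrb1, the β1-adrenergic receptor, fell by 0.26 and 0.31 among 26 tested members of the list and none rose. Neither was called without any 1 of the 4 libraries (adjusted p 0.0931 to 0.279). Adrb3, the β3-adrenergic receptor of adipocytes, gave 0.01 ± 0.14 (adjusted p 0.974). It had 13.4 and 12.7 CPM in FSK1D libraries, against 11.1 and 14.7 CPM in FSK4h libraries and 26.2 and 26.9 CPM in control libraries. The forskolin groups overlapped at this receptor, and both lay below control.

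AP-1 and immediate-early genes fell or did not pass the test. Of 21, Ier3, Egr1 and Fosl1 fell, none rose, and the median was -0.16. Fosl1, an AP-1 subunit, had 56.3 and 62.1 CPM in FSK1D libraries, against 79.2 and 71.2 CPM in FSK4h libraries and 42.3 and 38.5 CPM in control libraries (-0.34 ± 0.092, edgeR adjusted p 0.0296). Fos itself gave 0.03 (adjusted p 0.853) and Jun 0.01 (adjusted p 0.942). Of 168 peaks in the list, 13 fell and 2 rose, which is 7.74% lower against 2.86% over all assigned peaks. Ier3 was the 1 member called without each of the 4 libraries in turn.

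Genes of the thermogenic program did not pass the test, with 1 exception, while 5.41% of all genes tested were called. Of 22 tested, Ppara, the nuclear receptor that drives fatty acid oxidation, rose, with 232 and 230 CPM in FSK1D libraries, against 195 and 208 CPM in FSK4h libraries and 262 and 274 CPM in control libraries (0.20 ± 0.056, edgeR adjusted p 0.0365). Without any 1 of the 4 libraries it was not called (adjusted p 0.103 to 0.324). Ucp1, the uncoupling protein of thermogenic fat, had 8.94 and 7.28 CPM in FSK1D libraries, against 7.23 and 6.46 CPM in FSK4h libraries and 4.44 and 3.63 CPM in control libraries. Its log2 fold change was 0.24 ± 0.19 (adjusted p 0.492), and none of its 3 peaks was called. Both forskolin times lay above control at Ucp1 but close to each other. At the level of peaks, 9 of 253 assigned to the thermogenic list rose and 5 fell. That is 3.56% higher and 1.98% lower, against 2.62% and 2.86% of all peaks assigned to genes.

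Ppargc1a, the PGC-1α coactivator, gave -0.02 ± 0.059 (adjusted p 0.899), with 309 and 291 CPM in FSK1D libraries and 300 and 308 CPM in FSK4h libraries, above the 216 and 244 CPM of control libraries. Of its 52 peaks 2 fell and 1 rose. A gene-body peak at chr5:51545783-51546032 had 1.56 and 1.73 CPM in FSK1D libraries, against 4.73 and 4.71 CPM in FSK4h libraries and 0.909 and 0.826 CPM in control libraries (-1.51 ± 0.33, adjusted p 0.00178), a call lost without S5 (0.0546). The peak that rose, at chr5:51607487-51608408, had 16 and 16.4 CPM in FSK1D libraries, against 10.9 and 11.0 CPM in FSK4h libraries and 10.3 and 9.25 CPM in control libraries (0.56 ± 0.16, adjusted p 0.0171), a call lost whichever of the 4 libraries was left out. Cidea and Dio2, a lipid droplet protein and the deiodinase of brown fat, gave 0.09 and -0.12 (adjusted p 0.715 and 0.884).

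In the list of lipolysis and the lipid droplet, Hilpda, an inhibitor of adipose triglyceride lipase, Plin2, a droplet coat protein, and Abhd5, the activator of that lipase, fell among 19, and none rose. Hilpda had 91.8 and 96.6 CPM in FSK1D libraries, against 127 and 132 CPM in FSK4h libraries and 71.8 and 79.3 CPM in control libraries (-0.46 ± 0.079, edgeR adjusted p 0.00195). Plin2 had 125 and 124 CPM in FSK1D libraries and 162 and 159 CPM in FSK4h libraries. At the level of peaks, 12 of 162 fell and 3 rose (7.41% and 1.85%, against 2.86% lower and 2.62% higher of all peaks assigned to genes). Of the 3 genes 1 was called without S3, 2 without S4, none without S5 (adjusted p 0.0573 to 0.184) and 2 without S6.

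In de novo lipogenesis, Pcx, Acly and Fasn fell among 19 and none rose, while 3.41% of all genes tested were lower. The list as a whole did not lean down, with a median of -0.026 against -0.041 over all genes. Of its 197 peaks 10 fell and 10 rose. Fasn, fatty acid synthase, had 61.2 and 73.1 CPM in FSK1D libraries, against 85.4 and 90.9 CPM in FSK4h libraries and 109 and 115 CPM in control libraries (-0.39 ± 0.10, edgeR adjusted p 0.0282). FSK1D was the lowest of these 3 groups there, and FSK3D libraries had 81.9 and 105 CPM. Acly, ATP citrate lyase, had 91.9 and 94.3 CPM in FSK1D libraries and 120 and 115 CPM in FSK4h libraries, and Pcx, pyruvate carboxylase, 188 and 200 CPM in FSK1D libraries and 232 and 253 CPM in FSK4h libraries. Without S3 1 of the 3 was called, without S4 or S5 none (adjusted p 0.0676 to 0.372) and without S6 2. In triglyceride synthesis Gpat3 and Mogat1 fell and Lpin1, a phosphatidate phosphatase, rose among 14. In fatty acid oxidation Cpt2, a carnitine palmitoyltransferase, fell by 0.47 and Ppara rose. Of these 5 calls, that of Gpat3 alone held without S5 (adjusted p 0.0487), and none held without S3, S4 or S6.

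Of 22 genes of adipocyte identity and PPAR targets, Adipor2, Fabp4, Angptl4, Retn and Pparg fell and none rose, with a median of -0.16. Over all genes tested 3.41% were lower and 2.0% higher. Of 257 peaks in the list 18 fell and 7 rose. That is 7.0% and 2.72%, against 2.86% and 2.62% of all peaks assigned to genes. Fabp4, the adipocyte fatty acid binding protein, had 141 and 138 CPM in FSK1D libraries, against 164 and 178 CPM in FSK4h libraries and 141 and 143 CPM in control libraries (-0.29 ± 0.060, edgeR adjusted p 0.00589). A peak 1049 bp from this gene, at chr3:10202195-10203293, had 14.5 and 14.9 CPM in FSK1D libraries, 25.9 and 26.2 CPM in FSK4h libraries and 58.6 and 56.7 CPM in Rosi3D libraries (-0.83 ± 0.13 for FSK1D over FSK4h). Pparg, the master regulator of adipogenesis, gave -0.21 ± 0.058 (adjusted p 0.0348), while its peak at the gene end gave -0.07 (adjusted p 0.824). The number of these 5 genes that was called was 2 without S3, none without S4 or S5 (adjusted p 0.0681 to 0.316) and 1 without S6. Adipoq, which encodes adiponectin, gave -0.22 ± 0.087 (adjusted p 0.134). Lep, which encodes leptin, had a peak at the far end of the gene from its start with 6.82 and 6.52 CPM in FSK1D libraries, against 3.29 and 4.41 CPM in FSK4h libraries and 10.5 and 12.2 CPM in control libraries (0.79 ± 0.22, adjusted p 0.0191), a call lost without S3, S5 or S6 (0.0991 to 0.286). Its gene sum was not called (adjusted p 0.248). The 7 adipocyte markers summed to 725 and 723 CPM in FSK1D libraries and 793 and 846 CPM in FSK4h libraries, and 2 of 7 fell. The part of such a shift in the results on other lists was not tested.

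Of 22 interferon genes, Rsad2, the antiviral protein viperin, and Irf1, an interferon-induced transcription factor, rose and none fell, with a median of 0.08. Irf1 had 184 and 196 CPM in FSK1D libraries, against 156 and 165 CPM in FSK4h libraries and 231 and 246 CPM in control libraries (0.24 ± 0.060, edgeR adjusted p 0.022). Its 4 called peaks all rose. The clearest, at chr11:53796557-53797157 and 18183 bp from the gene, had 17.3 and 18 CPM in FSK1D libraries, against 9.80 and 8.69 CPM in FSK4h libraries and 14.7 and 18 CPM in control libraries (0.93 ± 0.15, adjusted p 1.11e-05). The peak at the gene end gave -0.10 (adjusted p 0.737). Of 109 peaks in the list 5 rose and none fell, which is 4.59% higher against 2.62% of all peaks assigned to genes. Irf1 held 4 of these 5 peaks and Rsad2 none, so the share describes mainly 1 locus. With assignment within 10 kb the call of Irf1 was lost (edgeR adjusted p 0.243) and that of Rsad2 was kept. Neither gene was called without any 1 of the 4 libraries (adjusted p 0.0703 to 0.248).

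In the circadian list, Hlf rose, and Rorb, Per1, Arntl and Ciart fell. Hlf, a clock output factor, had 115 and 118 CPM in FSK1D libraries, against 79.1 and 87.3 CPM in FSK4h libraries and 121 and 129 CPM in control libraries (0.48 ± 0.075, edgeR adjusted p 0.000639). Rorb, an orphan receptor that acts on clock elements, had 94.2 and 89.7 CPM in FSK1D libraries and 127 and 121 CPM in FSK4h libraries (-0.43 ± 0.074). Of 239 peaks in the circadian list 13 rose and 13 fell. That is 5.44% each, against 2.62% higher and 2.86% lower of all peaks assigned to genes. The time of day of harvest is not stated in the labels used here. Without S3 none of the 5 was called (adjusted p 0.0514 to 0.0643 for Hlf, Rorb and Per1), and 2, 2 and 3 were called without S4, S5 and S6.

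In the list of SRF, YAP and actin genes, Fhl2 and Lmod1 rose and Tpm1 fell among 21, while 2.0% of all genes tested were higher and 3.41% lower. Of 198 peaks in this list 11 rose and 9 fell. That is 5.56% and 4.55%, against 2.62% and 2.86% of all peaks assigned to genes. Fhl2, a LIM-domain cofactor, had 93.0 and 92.5 CPM in FSK1D libraries, against 66.5 and 66.5 CPM in FSK4h libraries and 114 and 109 CPM in control libraries (0.48 ± 0.084, edgeR adjusted p 0.0021). Of the 3 calls none held without S3 (adjusted p 0.0534 to 0.264), Fhl2 held without S4, S5 and S6, and Lmod1 also without S5. In the matrix list of 25, the proteases Mmp2 and Mmp14 rose, and the collagens Col4a1, Col6a1 and Col6a3 fell. Of 406 peaks in the matrix list 14 rose and 23 fell (3.45% and 5.67%). Mmp2 had 147 and 145 CPM in FSK1D libraries, against 124 and 120 CPM in FSK4h libraries (0.26 ± 0.064), and Col4a1 317 and 309 CPM in FSK1D libraries, against 369 and 366 CPM in FSK4h libraries (-0.23 ± 0.050). None of the 5 was called without S3, S4 or S5 (adjusted p 0.0707 to 0.359), and Col6a1 was called without S6. Among 8 progenitor markers, Zfp423, a regulator of preadipocytes, rose by 0.23 (adjusted p 0.0147, and 0.0916 to 0.176 with 1 library left out).

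Irs2, the insulin receptor substrate, fell among 19 genes of insulin and glucose handling (-0.28 ± 0.060, edgeR adjusted p 0.00747), and held without S6 but not without S3, S4 or S5 (adjusted p 0.0701 to 0.159). Egln3, Hif1a and Angptl4 fell among 13 genes of hypoxia and angiogenesis, and Atf4 fell among 12 of the unfolded protein response. Of all genes tested 3.41% were lower. The peaks of these lists did not lean down. Of 130 in the hypoxia list 8 rose and 7 fell, and of 60 in the unfolded protein list 1 rose and none fell. Csf1 rose and Ptgs2, cyclooxygenase 2, fell among 25 genes of NF-kB and inflammation, and Lcn2, lipocalin 2, gave 0.46 ± 0.21 (adjusted p 0.211). Per1 and Angptl4 were the 2 lower members among 12 glucocorticoid targets. Apart from Irs2, Egln3 kept its call without S3 and S5 and Per1 without S6, and the other genes named here lost theirs whichever of the 4 libraries was left out. No member of the lists of 7 C/EBP and 14 cell cycle genes was called by edgeR or DESeq2, and 0 had an unadjusted p below 0.05 in edgeR. Of 37 peaks of the C/EBP list 3 rose and none fell (8.11% higher), and of 63 of the cell cycle list 1 rose and none fell.

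Of the markers of other cells, Csf1r and Cd68 of 8 macrophage genes tested fell, while 3.41% of all genes tested were lower. Of 33 peaks assigned to the macrophage genes 3 fell and 1 rose. Csf1r, the receptor for macrophage colony-stimulating factor, had 16.5 and 15.4 CPM in FSK1D libraries, against 23.6 and 21.8 CPM in FSK4h libraries and 7.27 and 9.0 CPM in control libraries (-0.51 ± 0.13, edgeR adjusted p 0.0242). Neither was called without any 1 of the 4 libraries (adjusted p 0.0974 to 0.23). The 8 genes summed to 121 and 113 CPM in FSK1D libraries, against 132 and 132 CPM in FSK4h libraries. These sums do not by themselves show that macrophages were present, and any part of other cells in the results was not tested. None of 8 endothelial, 4 muscle and 3 Schwann cell markers was called by DESeq2 or by edgeR with TMM over all 10 libraries. In that edgeR fit 2 of them, the endothelial Kdr and Pecam1, had an unadjusted p below 0.05. With DESeq2 size factors in edgeR 1 endothelial marker was called, and with the 4 libraries alone 2 were. Endothelial markers summed to 228 and 214 CPM in FSK1D and 237 and 230 CPM in FSK4h libraries. Muscle markers summed to 69.3 and 69.4 CPM in FSK1D and 68.2 and 65.3 CPM in FSK4h libraries.

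Of the 11300 tested peaks that overlapped a RefSeq start-site window (250 bases before to 50 after a start, both strands searched), 131 fell and 139 rose, or 1.16% and 1.23%. Windows of the higher peaks were poorer in CpG, with a median of 6 per window against 16 in lower and 20 in uncalled windows, and their peaks were weaker, with a median of 10.5 CPM against 23.9 and 27.4 CPM. The AP-1 letters were in 13.7% of lower windows, 6.47% of higher, 5.21% of uncalled and 5.2% of all 32851 windows. The full cAMP response element was in 5 lower windows (3.82%), 1 higher window (0.719%) and 3.00% of uncalled windows, against 1.79% of all. Its core TGACG, which the full element contains, was in 31.3% of lower, 9.35% of higher and 29.7% of uncalled windows, and in 20.8% of all. The E-box was in 11.5% of lower, 3.60% of higher, 9.82% of uncalled and 7.15% of all windows. The C/EBP letters were in no called window, 0.29% of uncalled ones and 0.183% of all, and the NBRE letters were in 3 lower and 3 higher windows, 0.925% of uncalled and 1.51% of all. The CCAAT box (CCAAT) was in 44.3% of lower, 40.3% of higher, 37.7% of uncalled and 37.4% of all windows. The GC box (GGGCGG) was in 48.1% of lower, 30.9% of higher, 62.7% of uncalled and 35.7% of all. These shares are a description of letters in windows that also differ in CpG content and level.

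Of the windows printed above, that of Krt13, a keratin of epithelia, holds 2 AP-1 matches, which begin 183 and 34 bases before the start. Its peak had 22.2 and 24.3 CPM in FSK1D libraries, against 37.0 and 35.2 CPM in FSK4h libraries and 24.4 and 26.7 CPM in control libraries (-0.63 ± 0.12, edgeR adjusted p 0.000383). The windows of the 3 higher peaks hold none of the 6 motifs that capitals mark. That difference from the 3 lower windows is one between picked examples. Over all start-site windows of tested peaks, the core TGACG was in 31.3% of lower, 9.35% of higher and 29.7% of uncalled ones. The peak of Ranbp3l, a nuclear export factor, had 6.93 and 8.00 CPM in FSK1D libraries, against 3.48 and 3.44 CPM in FSK4h libraries and 7.47 and 11.3 CPM in control libraries (1.11 ± 0.22, adjusted p 0.00056). Bmf, a pro-apoptotic BH3-only protein, had 9.0 and 9.01 CPM in FSK1D libraries, against 4.73 and 4.41 CPM in FSK4h libraries and 11.6 and 15.6 CPM in control libraries (0.98 ± 0.19). Serpina3i, a protease inhibitor, had 8.27 and 9.93 CPM in FSK1D libraries, against 4.47 and 2.48 CPM in FSK4h libraries and 3.33 and 4.54 CPM in control libraries (1.40 ± 0.24). Bmf and Ranbp3l were lowest after 4 hours, while Serpina3i was near control then and higher after 1 day. Serpina3i has close paralogs, between which reads could be split, so its value is uncertain. The peaks of Slc25a25, Krt13, Ranbp3l, Bmf and Serpina3i were called under all 11 alternatives.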

How the data were processed

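Chromatin accessibility was measured by ATAC-seq on 10000 sorted nuclei per library, with paired-end reads. The deposited table holds the authors' read counts per peak, not normalized. The submitters' processing notes name, without versions, MACS2, featureCounts, Bowtie2, fastp, Picard, SAMtools and deepTools, and the builds mm10 and GRCm38. The sources used here do not say if peak calling pooled the libraries. Columns were matched to groups by name. Peaks that passed edgeR's expression filter were tested with edgeR 4.0.16 (R 4.3.3; TMM factors, robust quasi-likelihood F test) in 1 fit over all 10 libraries, with the contrast FSK1D minus FSK4h and Benjamini-Hochberg adjusted p below 0.05. For genes, counts were summed over peaks within 1 kb of an end of a protein-coding gene, in its body, or nearest to it within 50 kb (RefSeq GRCm38.p6). CPM values are after TMM scaling, and counting error alone does not cover the spread between libraries.

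The text names the 8 largest rises and 8 largest falls among called peaks, and likewise among genes with at least 3 peaks, of at least median level and with groups that do not overlap, up to 3 called members per list, and a fixed set of 16 genes; others named were picked after their values were seen. The 27 lists (443 entries, all matched by symbol) and the members were chosen with earlier results of these data known. Alternatives were library sizes alone, DESeq2 1.42.0 size factors, trended offsets (limma 3.58.1), scaling by gene-end peaks, DESeq2's own test, no filter, the 4 libraries alone, each library left out, gene-end peaks alone and assignment within 10 kb. The fits were tested on simulated counts. Some list members are not reported here.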

Additional observations from a re-analysis of the deposited data

How the results depend on the processing

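No paired analysis was possible because column names give the group and a library number from S1 to S10, and not the replicate numbers of the labels. The count of called peaks was 2505 with DESeq2 and 10848 with the 4 libraries alone, against 6621, and 2046 to 2793 with 1 library left out. The count of called genes was 2705 with the 4 libraries alone, 110 with gene-end peaks alone and 97 to 257 with 1 library left out, against 920. A group with 1 library left was assumed to vary like the other groups. The cause of these differences was not tested. Some values changed sign, most of them uncalled. By gene, Ppargc1a gave 0.0369 with library sizes alone, 0.0316 with trended offsets, 0.0178 with scaling by gene-end peaks, 0.00946 with DESeq2, 0.225 with gene-end peaks alone and -0.0607 to 0.0246 with 1 library left out. Adrb3 gave -0.013 with DESeq2 size factors and -0.173 to 0.234 with 1 library left out, and Dio2, as gene and as peak, -0.282 to 0.0261 and -0.282 to 0.0258. Hlf and Irf1, both higher by the gene sum, gave -0.107 and -0.0957 with gene-end peaks alone. In that fit 12 of the 54 named called genes with a value kept their call, and 52 kept their direction. With assignment within 10 kb 48 of 61 kept their call. Gene-end peaks with 1 library left out gave -0.168 to 0.489 at Cidea, -0.354 to 0.0666 at Nr4a1, -0.22 to 0.0168 at Irf1, -0.166 to 0.043 at Pparg (0.00297 with trended offsets) and -0.614 to 0.0372 at Csf1r. Of the 61 named genes that were called, 19, 22, 23 and 30 remained so without S3, S4, S5 and S6, and of 28 such peaks 21, 24, 21 and 23.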
